A study of Mus musculus with 9 samples.

Results

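The genes described here are 10 regulators of mitochondrial shape, supply and removal, taken by symbol from a table of 23309 gene symbols: Mfn1, Mfn2 and Opa1 for fusion, Dnm1l and Fis1 for fission, Ppargc1a, Nrf1 and Tfam for biogenesis, and Pink1 and Park2 for mitophagy. All 10 were found, each on 1 row. RNA was measured in 9 libraries of GFP-positive podocytes, the epithelial cells that cover the glomerular capillaries, from wildtype mTmG reporter mice aged 7 to 8 weeks. A Cre under a podocyte promoter turns recombined cells from a red to a green reporter. All groups carry these alleles. The groups were mice given PBS, mice 9 days after ADR and mice 14 days after ADR, with 3 libraries each. Whether libraries of 1 group stem from different animals is not stated in the labels. In each ADR group Y-linked transcripts were present in some libraries and nearly absent in others, so these do not all stem from the same animal. The p-values here reflect spread among libraries, which may be partly technical.

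Mitochondria fuse and divide continuously. Mfn1 and Mfn2 are GTPases that join outer membranes and Opa1 is the GTPase that joins inner membranes, while Dnm1l encodes DRP1, the dynamin-like GTPase that constricts the organelle, and Fis1 an outer membrane adaptor. New mitochondria depend on the coactivator PGC-1α (Ppargc1a), which works with nuclear respiratory factor 1 (Nrf1), the ETS factor GABP and estrogen-related receptors, and on Tfam, which packages and transcribes mitochondrial DNA. Damaged mitochondria are marked by the kinase PINK1 and the ubiquitin ligase parkin (Park2) for removal by autophagy.

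Podocyte markers were present in every library: 6 markers (Nphs1, Podxl, Synpo, Wt1, Ptpro and Cdkn1c) summed to 4380 to 7960 FPKM in PBS libraries, 4170 to 8200 at day 9, and 1600 to 10800 at day 14. Most of each sum is Cdkn1c (1410 to 10700 FPKM over the 9 libraries). Synpo was at 26.9 to 52.2 FPKM in PBS libraries, 101 to 135 on day 9 and 8.52 to 25 on day 14. Podxl was at 87.4 to 135 FPKM in PBS libraries, 119 to 221 on day 9 and 53.3 to 96.3 on day 14. FPKM are fragments scaled to transcript length and to mapped fragments. Marker transcripts of other kidney cells were also high in ADR_D9 replicate 3 and ADR_D14 replicate 1, where 10 of 10 endothelial markers were above 1 FPKM and above 4 times their PBS maximum. In ADR_D14 replicate 1 the same held for 9 of 10 proximal tubule and 10 of 10 distal tubule, loop and duct markers. In ADR_D9 replicate 3 it held for 4 of 10 and 6 of 10 of them. Leukocyte markers summed to 1390 and 2080 FPKM in this pair of libraries (7.31 to 82.2 with PBS), and red cell markers to 548 FPKM in ADR_D9 replicate 1 and 248 in ADR_D9 replicate 3 (at most 5.45 with PBS). The depth estimated from the steps of low values, relative to PBS replicate 2, was 0.239 to 0.571 on day 14 and 0.787 to 1.08 in the other libraries. Y-linked transcripts (Ddx3y, Eif2s3y, Kdm5d and Uty) summed to 53.6 to 70.5 FPKM in all PBS libraries, ADR_D9 replicate 1 and ADR_D14 replicate 2. In the rest their sum was at most 1.06. Sex, as read from these transcripts, was thus not balanced between the PBS and ADR groups, and its part cannot be fully separated from that of ADR.

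With PBS, Dnm1l was the most abundant of the 10 at 48.1 ± 11.5 FPKM (mean ± SD, n = 3 in each group throughout). Mfn2 (20.0 ± 4.39), Nrf1 (17.3 ± 1.94) and Mfn1 (12.4 ± 4.05) followed, each overlapping with its neighbour in this order, and all below the lowest Dnm1l library. Pink1 stood at 4.16 ± 2.25 and Fis1 at 2.88 ± 0.376 FPKM, with overlap between them and none with Mfn1. The lowest Pink1 library (1.76) also lay inside the range of Opa1. Opa1 (1.56 ± 0.292) and Tfam (1.40 ± 0.563) were low and overlapped each other. Ppargc1a (0.388 ± 0.029) and Park2 (0.237 ± 0.0794) lay below 1 FPKM in every PBS library and did not overlap. The median over the 9788 tested genes was 9.42 FPKM, so Opa1, Tfam, Ppargc1a and Park2 belonged to the weakly detected genes of these podocytes.

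**Figure D1:**
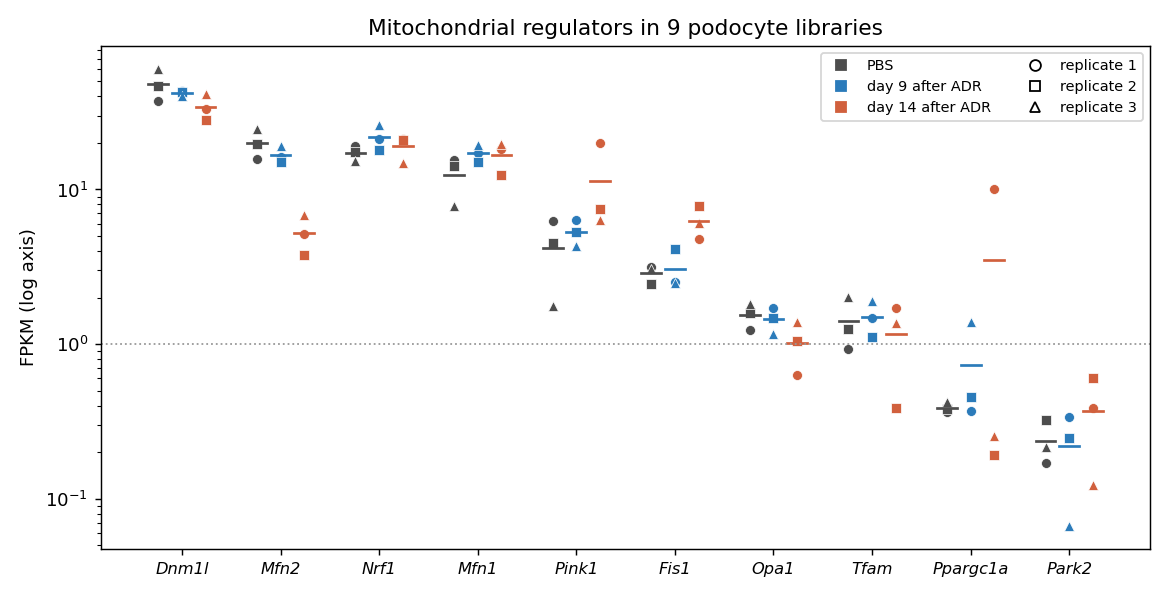
FPKM of the 10 regulators (log axis) in each of the 9 libraries, ordered by their PBS mean. Points are libraries, short lines are group means and the dotted line marks 1 FPKM. The 3 day 14 values of Mfn2 (3.77 to 6.80 FPKM) lie below all other values of that gene.

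Genes that reached 1 FPKM in 3 or more libraries were tested with limma on log2(FPKM + 1), which understates changes of low genes. Of the 10 regulators 8 passed this filter. Ppargc1a reached 1 FPKM in 2 libraries and Park2 in 0, so these are given as values. Each log2 change below is relative to the median change of all tested genes, which was 0.035 for day 9 and −0.147 for day 14 when set against PBS, and −0.216 between the ADR groups (day 14 against day 9). A gene is said to have changed where its Benjamini-Hochberg adjusted p over all tested genes was under 0.05. Each limma p tests the change before that median was taken off, not the printed relative change. For Mfn2 on day 14 against PBS the tested change was −1.76 and the relative one −1.62, and for Tfam −0.19 and −0.04.

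Mfn2 was the regulator that changed. PBS libraries held 15.8, 19.6 and 24.6 FPKM, day 9 libraries 16.2, 15.1 and 19.0, and day 14 libraries 5.12, 3.77 and 6.80. The day 14 libraries thus lay below every PBS and day 9 library, while PBS and day 9 overlapped. Mfn2 fell by 1.62 on the log2 scale on day 14 against PBS (SE 0.27, adjusted p = 0.01 by limma, lower in 3 of 3 libraries) and by 1.32 on day 14 against day 9 (SE 0.27, adjusted p = 0.0129 by limma, lower in 3 of 3). On day 9 its change was −0.26 ± 0.27 (SE). In bulk libraries, less RNA per podocyte and a smaller share of podocytes cannot be told apart. The fall was close in size without the pair of libraries that carried markers of other kidney cells (−1.60, adjusted p = 0.0138 by limma, against PBS).

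Whether Mfn2 passed against PBS depended on a few choices. With a term for Y-linked transcripts its change was −1.77 (adjusted p = 0.0831 by limma) and without PBS replicate 2 it was −1.64 (adjusted p = 0.0659 by limma), and in each of these fits 0 of all genes passed (2282 and 2336 at an unadjusted p under 0.05). Against day 9 Mfn2 passed with the Y-linked term, in a fit where 448 genes were higher and 791 lower. On day 14 only ADR_D14 replicate 2 held Y-linked transcripts, with Mfn2 at 3.77 FPKM beside 5.12 and 6.80 in the others. This is 1 library, and the part of sex in the Mfn2 fall was not tested.

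For Mfn1, which shares the outer membrane fusion role, PBS libraries held 15.4, 14.1 and 7.79 FPKM, day 9 libraries 17.2, 15.0 and 19.3, and day 14 libraries 18.4, 12.4 and 19.7. All groups overlapped, with PBS replicate 3 the lowest library. Its log2 change was 0.58 ± 0.30 (SE) on day 14 and 0.45 ± 0.30 on day 9 against PBS, and neither passed (adjusted p = 0.336 and 1 by limma).

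The balance between the mitofusins, was taken inside each library, where a common scaling factor enters only through the added 1. The difference log2(Mfn2 + 1) − log2(Mfn1 + 1) was 0.04, 0.45 and 1.54 in the PBS libraries, −0.09, 0.01 and −0.02 at day 9, and −1.67, −1.49 and −1.41 at day 14. Day 9 libraries were close to equal amounts, and so was PBS replicate 1. The groups did not overlap, but PBS cleared day 9 by a narrow margin (0.04 against 0.01 at the closest). Day 14 lay below both. In linear terms the ratio of Mfn2 to Mfn1 FPKM was 1.03 to 3.16 with PBS, 0.938 to 1.01 on day 9 and 0.278 to 0.345 on day 14. The mean log2 ratio differed by −2.20 between day 14 and PBS, by −1.49 between day 14 and day 9, and by −0.71 between day 9 and PBS (exact permutation test, two-sided, p = 0.1 for each, the smallest that 3 libraries against 3 can give). PBS replicate 3 carried much of the PBS mean: without it the day 9 difference was −0.28 and the day 14 difference −1.77.

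**Figure D2:**
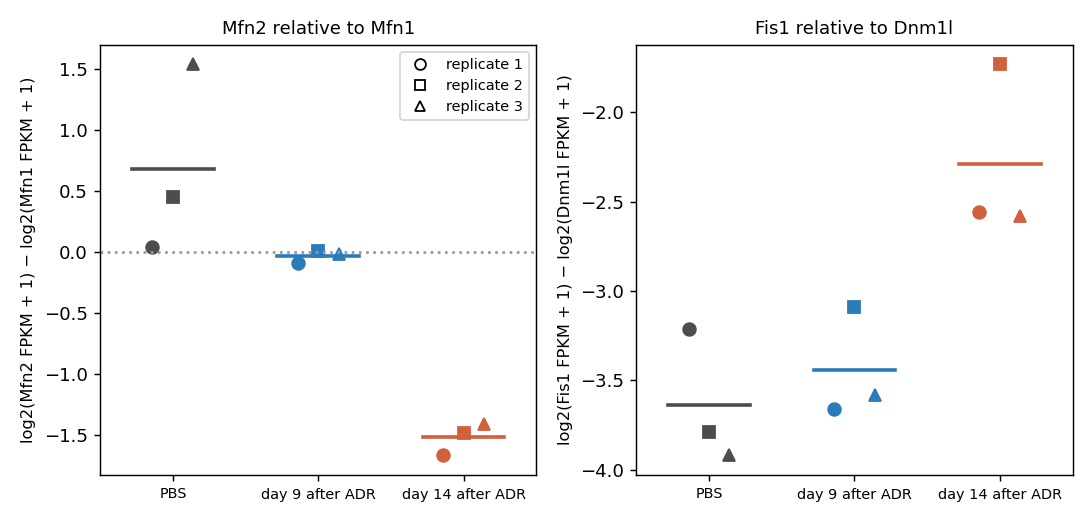
Difference of log2(FPKM + 1) between Mfn2 and Mfn1 (left) and between Fis1 and Dnm1l (right) per library, with group means as lines. The Mfn2 to Mfn1 values fall between −1.67 and −1.41 on day 14, and the Fis1 to Dnm1l values rise to between −2.58 and −1.73.

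The promoters of these paralogs are shown because only the Mfn2 transcript passed the test. Sequences are from RefSeq on GRCm38.p6, from 250 bases before to 50 bases after an annotated start, written 5′ to 3′ on the gene's strand. Windows were found for 9 of the 10 genes, 14 in all. On both strands they were searched for the core of nuclear respiratory factor 1 sites (GCGC and GCGC parted by any pair of bases), CCGGAAGT, an ETS core that GABP binds, TCAAGGTCA, an estrogen-related receptor site, and TGACGTCA, the cyclic AMP response element. Capitals mark a match, and no matches overlapped.
Mfn1, chr3:32529232-32529531, plus strand: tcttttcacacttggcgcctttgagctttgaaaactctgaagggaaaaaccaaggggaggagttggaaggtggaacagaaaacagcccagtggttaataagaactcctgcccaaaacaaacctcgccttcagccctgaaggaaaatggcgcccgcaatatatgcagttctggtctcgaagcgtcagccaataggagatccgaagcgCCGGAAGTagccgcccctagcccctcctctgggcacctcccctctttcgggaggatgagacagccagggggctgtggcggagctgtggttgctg
Mfn2, chr4:147904860-147905159, minus strand: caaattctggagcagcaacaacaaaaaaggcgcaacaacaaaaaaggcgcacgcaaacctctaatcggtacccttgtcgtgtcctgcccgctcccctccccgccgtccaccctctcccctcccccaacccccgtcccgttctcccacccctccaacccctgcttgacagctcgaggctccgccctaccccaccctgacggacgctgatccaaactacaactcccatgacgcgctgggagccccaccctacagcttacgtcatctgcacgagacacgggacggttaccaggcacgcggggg

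The Mfn1 window holds CCGGAAGT at bases 44 to 37 before the start, and none of the 3 annotated Mfn2 windows, which overlap one another, holds any of the 4 strings. The ETS core was present in 3.89% of all 32851 windows of this length. It also lies in the Tfam window (bases 47 to 40 before the start) and in both Fis1 windows (bases 18 to 11 before one start and 20 to 27 after the other). The nuclear respiratory factor 1 core, in 6.23% of all windows, lies in the Opa1 window at bases 59 to 50 and in the Pink1 window at bases 10 to 1 before the start. TCAAGGTCA and TGACGTCA, in 0.423% and 1.79% of all windows, were in none of the 14. These are letter matches in short windows and say nothing of binding.

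Opa1, the inner membrane fusion gene, was measured at 1.24, 1.60 and 1.82 FPKM in PBS libraries, 1.71, 1.47 and 1.16 at day 9, and 0.633, 1.05 and 1.39 at day 14. The groups overlapped, and the log2 change on day 14 against PBS was −0.20 ± 0.22 (SE, adjusted p = 0.299 by limma).

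Among the fission genes, Fis1 was higher in every day 14 library than elsewhere but missed the threshold. PBS libraries held 3.14, 2.45 and 3.04 FPKM, those of day 9 2.51, 4.14 and 2.47, and those of day 14 4.75, 7.81 and 6.11. The day 14 libraries did not overlap with either other group. Its log2 change was 1.03 ± 0.27 (SE, adjusted p = 0.0558 by limma) against PBS and 1.06 ± 0.27 (adjusted p = 0.0652 by limma) against day 9. The changes that these p-values test, before the median was taken off, were 0.88 and 0.84. With median-of-ratios scaling Fis1 was at 1.03 against PBS and passed (adjusted p = 0.0424 by limma). Without ADR_D14 replicate 1, which held tubule markers and had the lowest Fis1 value of its group, it passed both (1.21 each, adjusted p = 0.0305 and 0.0324 by limma). Fis1 is also the shortest of the 8 tested transcripts, and once a fitted trend on length and GC share was taken out its change against PBS was 0.46 ± 0.30 (SE, adjusted p = 0.372 by limma).

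Dnm1l was measured at 37.4, 46.6 and 60.3 FPKM in PBS libraries, 43.6, 42.8 and 40.4 at day 9, and 32.9, 28.2 and 41.5 at day 14, so the groups overlapped. Its change of −0.32 ± 0.24 (SE) on day 14 against PBS did not pass (adjusted p = 0.198 by limma). The Fis1 to Dnm1l difference was −3.21, −3.79 and −3.92 in the PBS libraries, −3.66, −3.09 and −3.58 at day 9, and −2.56, −1.73 and −2.58 at day 14. Day 14 lay above both other groups without overlap. The means differed by 1.35 between day 14 and PBS and by 1.16 between day 14 and day 9 (exact permutation test, two-sided, p = 0.1 each). Between day 9 and PBS the difference was 0.20, with p = 0.5 in the same exact test. The pair differs in transcript length (948 and 3966 bases). Once the fitted trend on length and GC share was taken out, Fis1 and Dnm1l were at 0.46 and −0.31 against PBS and at 0.42 and −0.12 against day 9. In every library Fis1 RNA remained a small part of Dnm1l RNA, with FPKM ratios of 0.0505 to 0.276.

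**Figure D3:**
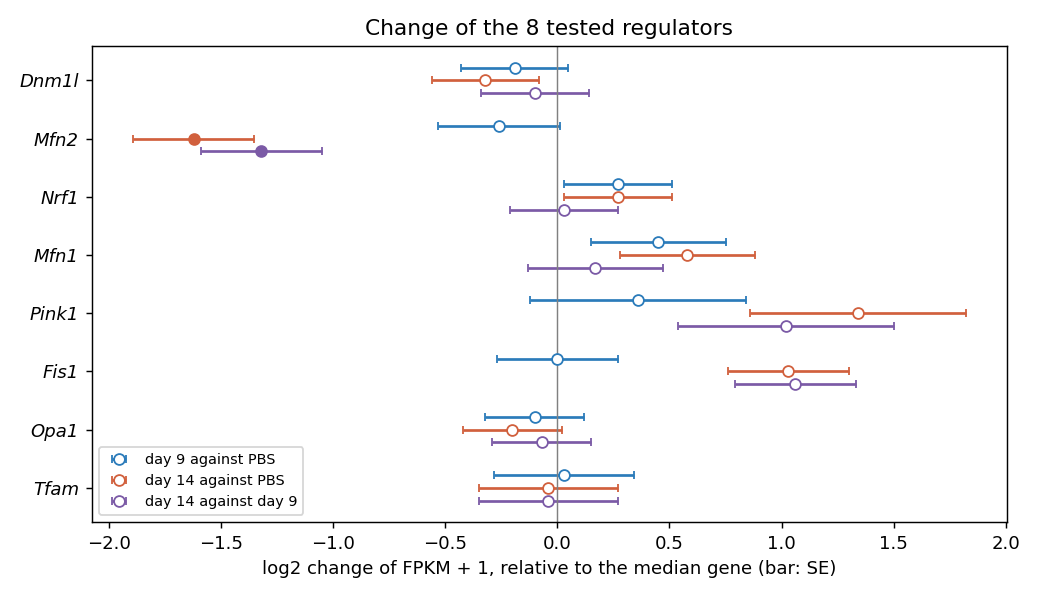
Log2 change of FPKM + 1 relative to the median gene for the 8 tested regulators in 3 comparisons, with SE as bars and filled points where the adjusted p was under 0.05. Mfn2 alone has filled points, at −1.62 (day 14 against PBS) and −1.32 (day 14 against day 9).

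In the biogenesis genes, Nrf1 was measured at 19.1, 17.5 and 15.2 FPKM in PBS libraries, 21.3, 18.1 and 26.0 at day 9, and 21.2, 21.0 and 14.9 at day 14. The groups overlapped, with changes of 0.27 ± 0.24 (SE) against PBS at both times, neither past the test. Tfam was measured at 0.933, 1.25 and 2.03 FPKM in PBS libraries, 1.47, 1.11 and 1.90 at day 9, and 1.72, 0.387 and 1.37 at day 14. The SD inside each group (0.563, 0.398 and 0.692) exceeded the differences between group means, and its log2 changes lay between −0.04 and 0.03 ± 0.31 (SE).

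Ppargc1a separated by library and not by group. PBS libraries held 0.366, 0.378 and 0.421 FPKM, those of day 9 0.368, 0.456 and 1.39, and those of day 14 10.1, 0.193 and 0.254. The value of 10.1 belongs to ADR_D14 replicate 1 and that of 1.39 to ADR_D9 replicate 3. In the latter, endothelial markers summed to 3120 FPKM (3.69 to 12.1 with PBS) and distal tubule, loop and duct markers to 581. The other pair of day 14 libraries lay below every PBS library. In ADR_D14 replicate 1 the 10 proximal tubule markers summed to 2590 FPKM and the 10 distal tubule, loop and duct markers to 21300 (9.93 to 55.2 with PBS). The proximal tubule sums were 4.16 to 9.86 with PBS. On day 9 they were 6.62 in replicate 1, 51.6 in replicate 2 (Ppargc1a 0.456) and 44.6 in replicate 3 (Ppargc1a 1.39). In the other day 14 libraries they were 1.42 and 1.89, with Slc5a2 at 0. Kap was at 0 in every library other than ADR_D14 replicate 1. The part of RNA from tubule or other cells in these Ppargc1a values was not tested.

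**Figure D4:**
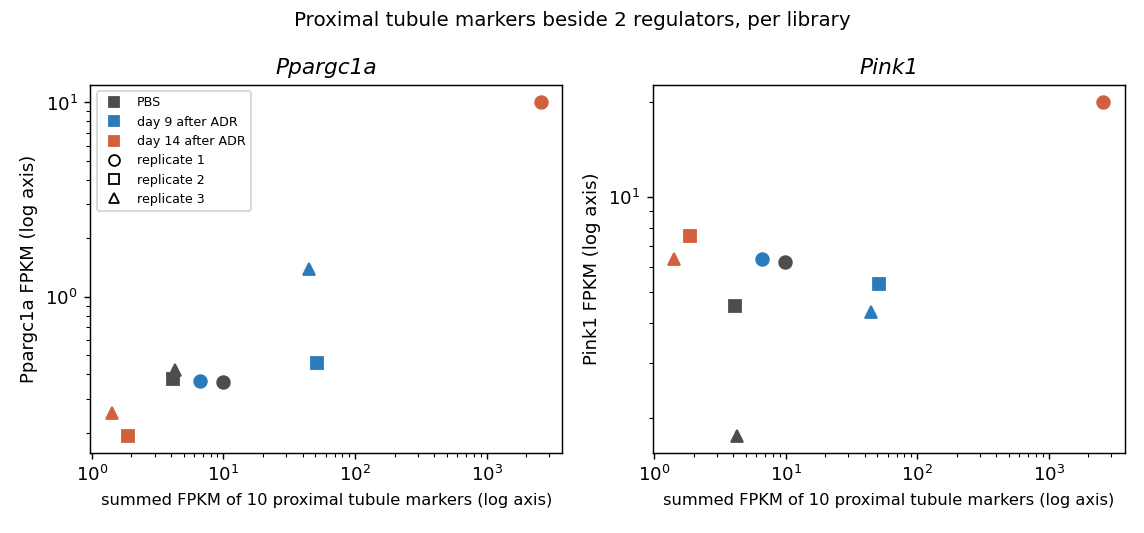
FPKM of Ppargc1a (left) and Pink1 (right) against the summed FPKM of 10 proximal tubule markers per library, both axes logarithmic. ADR_D14 replicate 1 stands apart at a marker sum of 2590 FPKM, with Ppargc1a at 10.1 and Pink1 at 20.0 FPKM.

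Of the mitophagy pair, Pink1 was measured at 6.22, 4.51 and 1.76 FPKM in PBS libraries, 6.39, 5.31 and 4.32 at day 9, and 20.0, 7.52 and 6.37 at day 14. All day 14 libraries lay above the PBS libraries, replicate 3 by a narrow margin, and they overlapped with day 9. The highest value belongs to ADR_D14 replicate 1, the library with the highest sums of tubule markers, whose part in it was not tested. The log2 change against PBS was 1.34 ± 0.48 (SE, adjusted p = 0.117 by limma), and 0.90 without ADR_D14 replicate 1 (adjusted p = 0.227 by limma). Park2 ranged from 0.0666 to 0.605 FPKM over the 9 libraries, with group means of 0.237 ± 0.0794, 0.218 ± 0.139 and 0.372 ± 0.242 for PBS, day 9 and day 14. At such values a difference in Park2 was not detectable.

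Counted over the 8 tested regulators, 0 changed on day 9 against PBS, where 0% of all tested genes did by limma (304 of 9788 had an unadjusted p below 0.05). On day 14 against PBS 1 of 8 fell and 0 rose, beside 17.1% of all tested genes changed, 10.7% lower and 6.32% higher. On day 14 against day 9 1 of 8 fell and 0 rose, beside 15.7% of all genes changed, 9.98% lower and 5.71% higher. A share of 1 in 8 lies near the background, and the median changes of the 8 were 0.02, 0.11 and 0.00. The groups did not overlap for 0 of 8 regulators on day 9 (13.4% of all genes), 3 of 8 on day 14 against PBS (39.4%) and 2 of 8 on day 14 against day 9 (37.7%). The split of all genes into 619 higher and 1051 lower against PBS moved to 859 and 766 with median-of-ratios scaling, to 710 and 755 with quantile normalization and to 414 and 1679 with totals made equal. Against day 9 the split of 559 and 977 became 823 and 644, 677 and 535, and 393 and 1832. Mfn2 passed under each of these scalings.

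Changes on day 14 were related to transcript length over all genes (Spearman correlation −0.331 against PBS and −0.371 against day 9, and 0.073 on day 9 against PBS, over 9731 genes that share libraries and are not independent). The 974 genes with the shortest transcripts, near 955 bases, had a median change of 0.741 against PBS, and 973 genes near 4522 bases one of −0.357. Mfn1 and Mfn2 have longest annotated transcripts of 4562 and 4341 bases, with GC shares of 45.9% and 53.1%. Their changes were 0.58 and −1.62. Once a fitted trend on length and GC share was taken out, Mfn2 still fell against PBS (−1.20 ± 0.27 SE, adjusted p = 0.0387 by limma), but against day 9 it no longer passed (−0.87 ± 0.27, adjusted p = 0.0893 by limma). Pink1 was then at 1.43 ± 0.40 (adjusted p = 0.0665 by limma) and Mfn1 at 0.74 ± 0.29 (adjusted p = 0.142 by limma) against PBS.

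**Figure D5:**
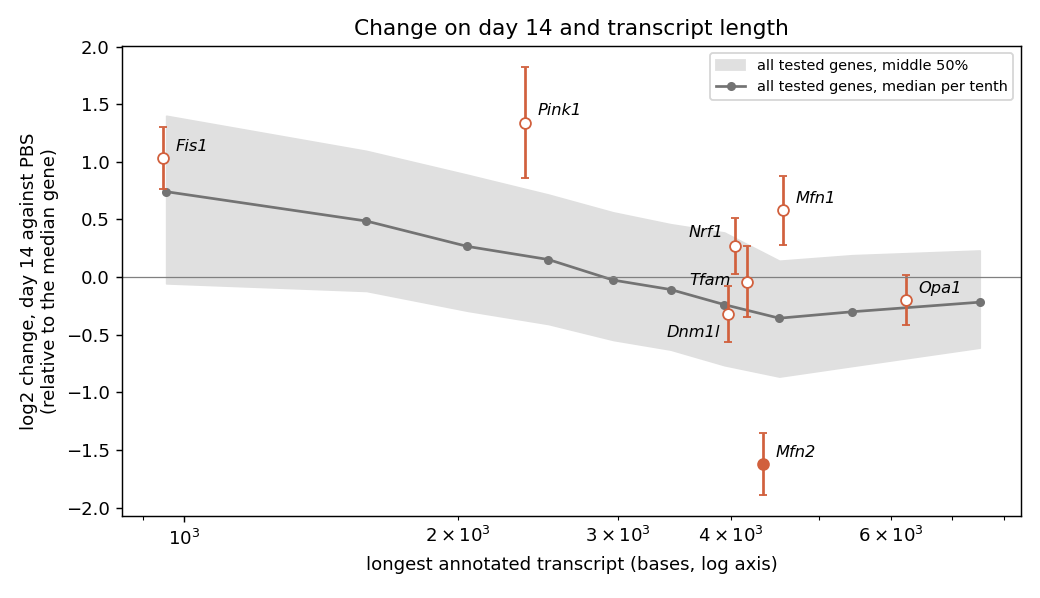
Log2 change on day 14 against PBS, relative to the median gene, against the longest annotated transcript (log axis). The grey line gives medians over 10 length classes of all tested genes with the quartiles shaded, from 0.741 at 955 bases to −0.357 at 4522 bases. Open and filled points are the regulators with SE. Fis1 at 948 bases lies near the line, Mfn2 at 4341 bases far below it.

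Further genes of the same processes were counted in lists. Of 16 tested partners in mitochondrial shape and movement (18 listed), 2 fell and 0 rose on day 14 against PBS, near the share of all genes (10.7% lower, 6.32% higher), with a median of −0.31. Without the length and GC trend 0 passed, beside 286 lower and 297 higher of 9731 genes in that fit. Mff, which encodes the main receptor of DRP1 on mitochondria, went from 124, 132 and 127 FPKM with PBS to 42.5, 88.8 and 50.9 on day 14 (−0.98 ± 0.28 SE, adjusted p = 0.0281 by limma) and also fell against day 9 (−0.83, adjusted p = 0.0373 by limma). The call against day 9 was lost without both libraries that held markers of other cells (−0.66, adjusted p = 0.0904 by limma). Prelid1, a lipid carrier of the intermembrane space, averaged 549 ± 24.5 FPKM with PBS and 280 ± 73.4 at day 14 (−0.86, adjusted p = 0.0408 by limma). Against day 9 the second gene to fall was Trak1, an adaptor that links mitochondria to motor proteins (−1.27, adjusted p = 0.0469 by limma), at 3.59 to 4.63 FPKM on day 9 and 0.418 to 1.80 on day 14. Without the length and GC trend Trak1 was at −0.58 (adjusted p = 0.358 by limma). In 1 PBS library Trak1 was as low, at 0.845 FPKM.

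Of 18 tested biogenesis partners (20 listed), 4 fell and 1 rose on day 14 against PBS, beside 10.7% of all genes lower and 6.32% higher, with a median of −0.25. Without the length and GC trend 2 fell and 0 rose, beside 286 lower and 297 higher of 9731 genes in that fit. Pprc1 and Ppargc1b, the relatives of PGC-1α in its coactivator family, and Esrra, the receptor ERRα that PGC-1α coactivates, were among those that fell. Pprc1 went from 6.18, 7.32 and 7.80 FPKM with PBS to 0.981, 0.990 and 0.983 on day 14 (−1.88 ± 0.25 SE, adjusted p = 0.00994 by limma), below every other library. It also fell against day 9 (−1.55, adjusted p = 0.00999 by limma), but was at −0.90 (adjusted p = 0.0601 by limma) without the length and GC trend. Esrra went from 33.3, 21.1 and 18.4 FPKM with PBS to 10.4, 8.98 and 12.0 (−0.96 ± 0.28, adjusted p = 0.03 by limma), and against the 24.3, 34.5 and 34.1 FPKM of day 9 it fell by 1.26 (adjusted p = 0.0145 by limma). Ppargc1b averaged 1.91 ± 0.286 FPKM with PBS and 0.662 ± 0.203 at day 14 (−0.66, adjusted p = 0.0258 by limma), and −0.20 with the length and GC trend removed. Polg2, the accessory subunit of the mitochondrial DNA polymerase and named after its value was seen, also fell (6.44 to 17.8 FPKM with PBS, 0.593 to 4.54 on day 14, −1.77, adjusted p = 0.0393 by limma). Without both libraries with other markers Polg2 was at −1.23 (adjusted p = 0.0568 by limma), and without the length and GC trend at −1.93 (adjusted p = 0.0633 by limma). Tefm, an elongation factor of mitochondrial transcription, rose from a mean of 7.73 ± 1.15 with PBS to 26.7 ± 13.8 FPKM on day 14 (1.71 ± 0.36, adjusted p = 0.0246 by limma) and by 1.76 against day 9 (adjusted p = 0.0267 by limma). It was highest in ADR_D14 replicate 1 (42.6 FPKM), and without that library and ADR_D9 replicate 3 its change against PBS was 1.35 (adjusted p = 0.0273 by limma). Tefm has a short transcript of 1309 bases, and with the length and GC trend removed it was at 0.91 against PBS (adjusted p = 0.14 by limma).

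Of 16 tested mitophagy partners (17 listed), 1 rose and 2 fell on day 14 against PBS, near the share of all genes (6.32% higher, 10.7% lower), with a median of 0.10. Bnip3l, a receptor that works without PINK1 and parkin by binding the autophagosome directly, rose from 23.1, 18.1 and 22.6 FPKM with PBS to 40.3, 46.1 and 51.7 (1.23 ± 0.22 SE, adjusted p = 0.0173 by limma), above every PBS and day 9 library. Against day 9 it rose by 1.13 (adjusted p = 0.0271 by limma), and was at 0.99 (adjusted p = 0.053 by limma) without the length and GC trend. The receptor genes Bcl2l13 and Fkbp8 fell by 0.92 and by 0.70 against PBS (adjusted p = 0.0223 and 0.038 by limma), and without the length and GC trend were at −0.59 and −0.95 (adjusted p = 0.161 and 0.0723 by limma). Usp30, a deubiquitinase that opposes parkin, was at 4.72 ± 0.725 FPKM on day 9 and 1.27 ± 0.469 on day 14 and fell by 1.13 (adjusted p = 0.0162 by limma), with −0.58 after removal of the length and GC trend (adjusted p = 0.269 by limma). With PBS it was at 2.25 to 4.03 FPKM, above all day 14 libraries and overlapping with day 9.

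Of the 11 cristae organisers, 5 rose and 0 fell on day 14 against PBS (median 0.91), and 4 rose against day 9 (median 1.06), beside 6.32% and 5.71% of all genes. Minos1, a core subunit of the MICOS complex at cristae junctions, went from 45.1, 31.9 and 39.7 FPKM with PBS to 189, 102 and 129 (1.93 ± 0.29 SE, adjusted p = 0.0108 by limma). Mtx1, an outer membrane protein bound to that complex, went from 20.3, 14.7 and 14.3 to 39.3, 37.7 and 37.8 FPKM (1.33 ± 0.23, adjusted p = 0.0154 by limma). Apoo rose by 1.84 (adjusted p = 0.0274 by limma), with 234 FPKM in ADR_D14 replicate 1 and 75.4 and 82.5 in the others. It rose by 1.34 (adjusted p = 0.0134 by limma) without both libraries that held markers of other cells. Samm50, of the outer membrane sorting machinery, rose by 0.91 (adjusted p = 0.0483 by limma) and so did Apool, named after its value was seen, by 1.05 (adjusted p = 0.0497 by limma). Without both of those libraries Apool was at 0.81 (adjusted p = 0.0652 by limma). With the length and GC trend removed 3 of 11 rose against PBS, beside 297 of 9731 genes in that fit, and the median was 0.77. Minos1 and Samm50 were then at 1.87 and 1.31 (adjusted p = 0.0282 and 0.0319 by limma). The lengths used for this pair, of the longest annotated transcripts, were 2549 and 4629 bases. Calls were lost for Apoo (1.01, adjusted p = 0.126 by limma), Apool (0.67, adjusted p = 0.151 by limma) and Mtx1 (1.04, adjusted p = 0.0545 by limma).

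Of 16 genes of the outer and inner membrane and matrix, taken as marks of mitochondrial amount, 1 rose and 1 fell on day 14 against PBS (median 0.17), no more than among all genes (6.32% higher, 10.7% lower). Clpp, a matrix protease subunit, went from 109, 86.5 and 80.3 to 234, 213 and 231 FPKM (1.45 ± 0.22 SE, adjusted p = 0.0114 by limma), and its change was 0.96 (adjusted p = 0.0615 by limma) without the length and GC trend. Hspd1, the matrix chaperone HSP60, went from 25.4, 36.3 and 55.1 to 17.6, 9.38 and 14.5 FPKM (−1.26 ± 0.36, adjusted p = 0.0309 by limma). On day 9, 0 genes of any of these lists passed, and their medians lay between −0.14 and −0.01. The calls against PBS in all 5 lists were lost with the Y-linked term and without PBS replicate 2, where no gene of the table passed. Of the 9 fits that each left out 1 library, Pprc1 passed against PBS in 8, and Fkbp8, Apool and Samm50 in 1. The comparisons against PBS and against day 9 share the day 14 libraries.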

How the data were processed

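The deposited values are FPKM, made by the authors for each library without a common total. Total RNA was depleted of ribosomal RNA, per the labels' protocols. Per the submitters' processing notes, which give no roles, the tools were Bowtie 0.12.7 and Cufflinks (its version is not given) and the build mm9. Annotation, strand setting and multi-mapping are not given in the sources used, so paralogs and overlapping genes are uncertain. PBS libraries are the columns named control, by replicate number. For 260 symbols on several rows, only the row of highest mean entered. The filtered genes (1 FPKM in 3 or more libraries) entered limma 3.58.1 under R 4.3.3 as log2(FPKM + 1), with a mean-variance trend, all groups in 1 fit, two-sided and with Benjamini-Hochberg adjustment per comparison. Ratios were compared by exact permutation. Read counts were not used, so no counting interval can be given. Transcript lengths and GC are those of the longest GENCODE M21 transcript, found for 99.4% of tested genes. Some podocyte markers are not reported here. Members and lists were chosen with earlier results of these data known. Named from each list were up to 4 genes per comparison with the smallest p, of which those that passed are printed, plus all members. Alternatives were another pseudocount, filters, scalings, variance models, sample sets and covariates, a replicate block, and each library left out.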

Additional observations from a re-analysis of the deposited data

Results flagged for a closer look

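Mfn2 stood out because its effects at the 2 time points differ by a direct test: on day 14 against day 9 its log2 change relative to the median gene was −1.32 (SE 0.27, adjusted p = 0.0129 by limma, lower in 3 of 3 libraries). Once the fitted trend on length and GC share was taken out, the difference was −0.87 (adjusted p = 0.0893 by limma).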

How the results depend on the processing

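Of 519 values of the 8 tested regulators under alternatives, 485 kept their sign, as did all 656 of the list genes named and all 66 of the ratios. The variance model and the replicate block cannot move a log2 change in this design. The list genes were named because they passed, so their kept signs say little. Mfn2 passed in 20 of 22 alternatives on day 14 against PBS (−1.79 to −1.20) and in 21 of 22 against day 9 (−1.51 to −0.87). The number of regulators that passed against PBS was 2 (Mfn2 and Fis1) with median-of-ratios scaling, without a variance trend and without ADR_D9 replicate 3 and ADR_D14 replicate 1 together, and 0 with the Y-linked term. Against day 9 it was 2 with median-of-ratios scaling and 0 with the length and GC trend removed. With 1 library left out it ran from 0 to 2 against PBS and from 1 to 2 against day 9.

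Over all genes, day 9 against PBS gave 2 without a filter, 1 with only the groups compared, and 0 to 1 with 1 library left out. Against PBS on day 14, 1670 became 997 without a filter, 583 with the length and GC trend removed, 551 with only the groups compared, 0 with the Y-linked term, and 0 (without PBS replicate 2) to 1879 with 1 library left out. Against day 9, 1536 became 881, 438 and 431 under the first 3 of these, and 407 to 2131 with 1 library left out. With the Y-linked term 448 genes were higher and 791 lower against day 9. The cause of these shifts was not tested.

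Signs turned as follows. On day 9 against PBS, Fis1 was −0.04 with quantile normalization, and Tfam −0.23 and Opa1 0.02 with the Y-linked term. In the same comparison Tfam was −0.07 and Opa1 0.01 without both libraries that held markers of other cells. With 1 library left out Tfam ran from −0.09 to 0.19, Opa1 from −0.17 to 0.01, Fis1 from −0.21 to 0.12 and Pink1 from −0.06 to 0.68. On day 14 against PBS, Tfam was 0.01 with a common total, 0.05 with quantile normalization, 0.06 with the length and GC trend removed, and −0.21 to 0.25 with 1 library left out. On day 14 against day 9, values without a filter were −0.17 for Nrf1 and −0.03 for Mfn1. With a common total they were −0.03 for Nrf1, 0.03 for Tfam and 0.00 for Opa1, with quantile normalization −0.03, 0.05 and 0.10, and with the length and GC trend removed 0.05 for Tfam and 0.12 for Opa1. With 1 library left out Nrf1 ran from −0.06 to 0.20, Tfam from −0.23 to 0.25, Opa1 from −0.20 to 0.08 and Dnm1l from −0.23 to 0.02.

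Replicate numbers shared between groups did not pair the libraries: deviations of same-numbered libraries correlated from −0.265 to 0.431, and libraries correlated best with their own number in 7 of 18 cases. With the replicate number as a block, 1301 and 1200 genes passed on day 14 against PBS and against day 9 and 0 on day 9. Mfn2 was at −1.62 and −1.32 (adjusted p = 0.0222 and 0.0245 by limma). The paired ratio differences equal the unpaired ones by construction, and the smallest exact p that this paired permutation test can give is 0.25. Depth was lowest on day 14, which limits Tfam, Opa1, Ppargc1a and Park2 most.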
